A study of Mus musculus with 6 samples.

Results

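Expression of 9 genes of superoxide production, iron traffic and antioxidant defence was followed in cultured mouse microglia with and without the adaptor protein Dap12. The set comprised Cybb, Cyba, Ncf1 and Ncf4 of the phagocyte NADPH oxidase, Slc40a1, Slc11a1 and Tfrc of iron transport, and Hmox1 and Nqo1 of antioxidant defence. All probe sets were taken whose platform annotation gave 1 gene symbol from this set, which yielded 19 of the 45101 probe sets on the array and covered all 9 genes. Of these 19, 15 were bright enough to be tested, 1 lay below the signal filter and 3 were the array maker's control probe sets for Tfrc. The study measured total RNA of primary microglial cultures on 6 single-colour oligonucleotide arrays. The groups were 3 arrays labelled Dap12-ko, called Dap12-deficient here, and 3 labelled wt, called wild-type. Titles of some arrays carry joined numbers and those of others a single number, without a stated meaning. Whether each array holds RNA of 1 preparation or of several is therefore not known here. No treatment is named for either group, and the sources used here state neither strain, age and sex nor the design of the deletion. Microglia are macrophages that live in brain tissue, and Dap12, the product of Tyrobp, couples myeloid receptors, Trem2 among them, to Syk kinase.

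The phagocyte NADPH oxidase moves electrons from NADPH across the membrane to oxygen and so makes superoxide. Its membrane core is a flavocytochrome built from the products of Cybb, the catalytic subunit, and Cyba, and it becomes active when cytosolic subunits, among them those of Ncf1 and Ncf4, and a Rac GTPase join it. Macrophages also recycle iron: the transferrin receptor (Tfrc) takes it up, Slc11a1 pumps divalent metal out of the phagosome, heme oxygenase 1 (Hmox1) frees it from heme, and ferroportin (Slc40a1) exports it from the cell. Hmox1 and Nqo1, a quinone reductase, are classical targets of the oxidant-sensing transcription factor Nrf2, and Hmox1 and Slc40a1 are held down by the heme-sensitive repressor Bach1.

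RefSeq promoter windows on build GRCm38.p6, each from 250 bases before to 50 after an annotated start, were at hand for 6 of the 9 genes (7 windows, with 2 for Tfrc), and none for Ncf4, Hmox1 and Slc40a1 was used here. The windows of 3 oxidase genes are shown from base -200 to base 20 around the start. They were picked because the log2 differences of their brightest probe sets, given below, differ in sign. None of these differences passed the threshold used below. The intervals of Cybb (-0.15 to 1.45) and Cyba (-0.95 to 0.28) include 0. Of the other Cybb probe sets 1 had 0.61 and 1 had -0.34, so a difference in direction between these genes is not shown. Capitals mark matches to the motifs GAGGAA, a core bound by the myeloid factor PU.1, and CCAAT.
Cybb (chrX:9469305-9469524, minus strand): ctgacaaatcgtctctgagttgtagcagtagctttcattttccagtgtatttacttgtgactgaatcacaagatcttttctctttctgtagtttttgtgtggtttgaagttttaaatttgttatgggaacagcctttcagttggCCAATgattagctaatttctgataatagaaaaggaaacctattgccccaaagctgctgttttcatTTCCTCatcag
Cyba (chr8:122432921-122433140, minus strand): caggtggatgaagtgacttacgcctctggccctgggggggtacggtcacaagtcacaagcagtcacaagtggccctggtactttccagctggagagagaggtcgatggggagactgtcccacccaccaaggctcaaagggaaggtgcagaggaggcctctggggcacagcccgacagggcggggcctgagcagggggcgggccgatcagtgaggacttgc
Ncf1 (chr5:134229606-134229825, minus strand): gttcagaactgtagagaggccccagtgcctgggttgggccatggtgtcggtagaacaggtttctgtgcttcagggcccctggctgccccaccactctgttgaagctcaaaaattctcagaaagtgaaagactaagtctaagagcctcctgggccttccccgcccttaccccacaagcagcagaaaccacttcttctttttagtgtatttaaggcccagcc
In these 3 windows the Cybb sequence held 1 match to GAGGAA, on the opposite strand at bases 10 to 15, and 1 to CCAAT at bases -56 to -52, while those of Cyba and Ncf1 held neither. Both strands were searched. GAGGAA occurred in 28.3% and CCAAT in 37.4% of all 32851 windows of this length. TGACNNNGC, the core of the antioxidant response element bound by Nrf2, occurred in 12.4% of all windows and in 0 of the 7, including that of Nqo1. Sequence more than 250 bases before the start was not searched, so elements farther upstream would be missed. A match is a description of letters only.

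Signals are linear and had been scaled per array by the submitters, so differences are read between arrays and not between probe sets. The sums of marker signals given below add several genes, so bright genes weigh most in them. Median signals over all probe sets were 11.9 to 14.0 on wild-type and 14.6 to 16.5 on Dap12-deficient arrays. Tyrobp, the targeted gene, gave 5396 to 7271 on wild-type and 96.2 to 125 on Dap12-deficient arrays (log2 difference -5.64, limma adjusted p = 8.14e-07). Sex-linked genes also separated the groups: the Y-linked Eif2s3y lay at 571 to 649 on wild-type and 64.5 to 176 on Dap12-deficient arrays, and Xist, expressed from the inactive X chromosome, at 88.9 to 99.8 and 427 to 2571 at the probe set with the smallest p. The brightest Xist probe set separated them only narrowly. It read 251, 277 and 1164 on wild-type arrays 1 to 3 and 2514, 2483 and 1228 on Dap12-deficient ones. The mix of male and female cells and the genotype can therefore not be told apart. Whether cultures came from separate animals is not stated in the labels, so the spread behind each p-value may be technical. Microglial markers were present on every array, with summed signals of 11 of 12 listed genes at 26633 to 36679 in wild-type cultures and 21699 to 32033 in Dap12-deficient ones. Of these 11, 10 were lower and 1 higher in Dap12-deficient cultures, with a median log2 difference of -0.29, and 0 passed the threshold. In RNA of a whole culture, fewer cells of a type and less RNA per cell cannot be told apart.

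No gene of the set passed the threshold of an adjusted p under 0.05 over the whole table (limma, 3 against 3 arrays). This count of 0 of 9 compares with 2 of all 12875 genes tested, Tyrobp itself and Zdhhc12, both of them lower without Dap12. These were also the only 2 called of all 27022 probe sets tested, a share of 0.0074% (0% higher). Of the 15 tested probe sets of the set, 3 had an unadjusted p under 0.05, against 10.7% of all. Read from the brightest tested probe set of each gene, 6 genes were higher and 3 lower in Dap12-deficient cultures, with a median log2 difference of 0.01. Over all 12875 genes tested the median was -0.03 and 45.2% were higher. Slc40a1 was the only 1 of the 9 whose arrays did not overlap between the groups, against 16.4% of all genes. That count was 4 without wild-type replicate 2, where the share of all genes was 26.3%, and 4 without Dap12-deficient replicate 2, where it was 29.8%. With a common median of the arrays it was 2, Slc40a1 and Ncf1, against 17.3%. Over the 15 tested probe sets the count was 2, both of Slc40a1, against 16.5%.

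**Figure D1:**
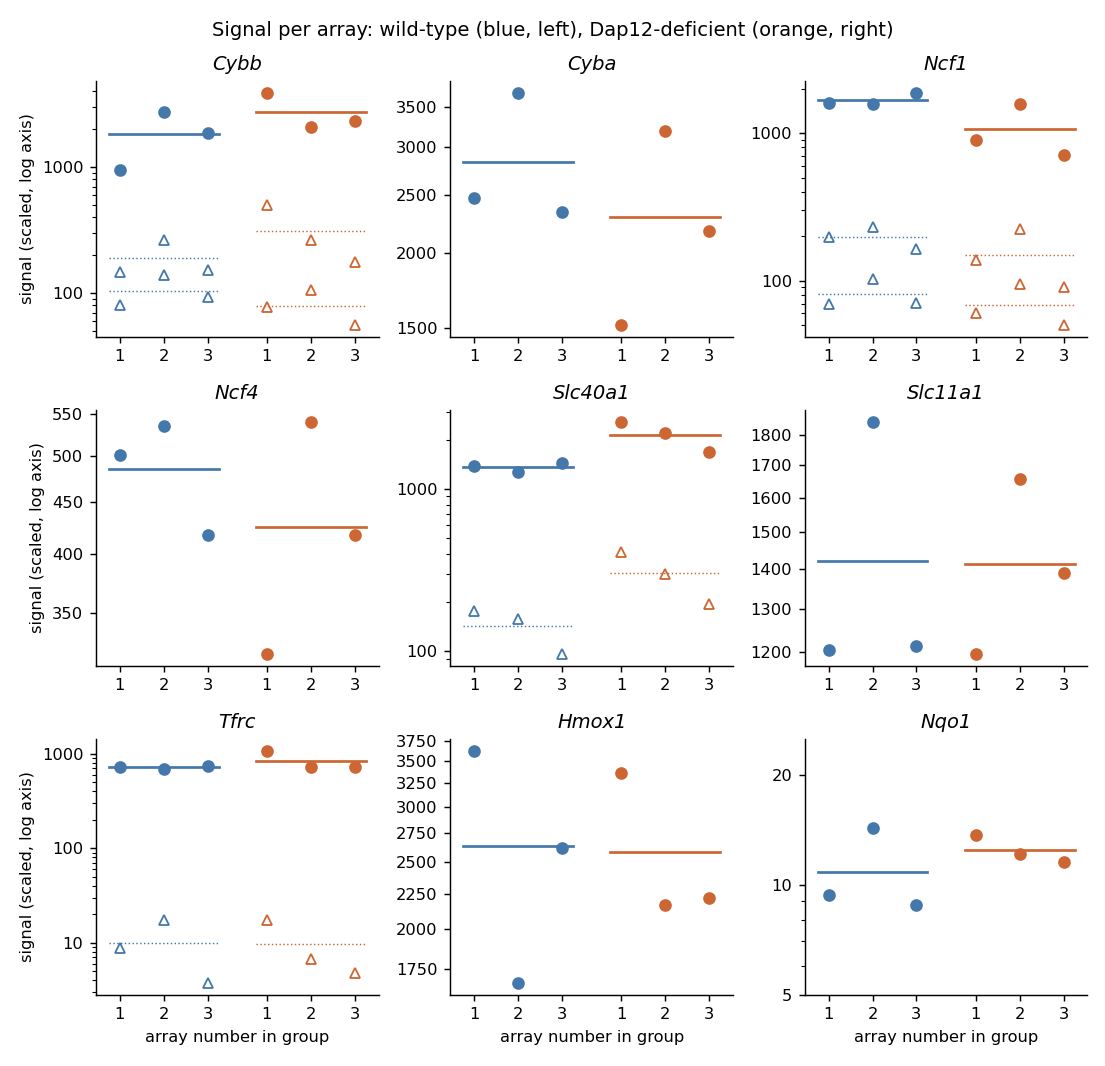
Signal of each gene (log axis, scaled linear signal) on wild-type arrays 1 to 3 (blue) and Dap12-deficient arrays 1 to 3 (orange). Filled circles are the brightest tested probe set, open triangles the other tested ones, and lines the group means. Slc40a1 alone has all orange points above all blue ones, at both of its probe sets.

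Slc40a1, which encodes ferroportin, the only known cellular exporter of ferrous iron, read higher on every Dap12-deficient array than on any wild-type array, at both probe sets. Its brightest probe set read 1392, 1282 and 1442 in the wild-type group (arrays in the order 1, 2 and 3, here and below) and 2599, 2205 and 1699 in the Dap12-deficient group. Dap12-deficient array 3 came closest to the wild-type range, 0.23 above it on the log2 scale. Group means were 1372 ± 81.9 (SD, n = 3) and 2168 ± 451 (SD, n = 3), a 1.58-fold difference. The log2 difference was 0.63 (SE 0.20, 95% interval 0.20 to 1.07) and did not pass the threshold (limma adjusted p = 0.338). The second probe set, drawn from the same source sequence, read 176, 158 and 96.1 in wild-type cultures and 408, 300.5 and 196 in Dap12-deficient ones. These arrays did not overlap either, and the means differed 2.10-fold, with a log2 difference of 0.98 (SE 0.29, 95% interval 0.33 to 1.62, limma adjusted p = 0.336). The exact two-sided permutation p was 0.1 at both, the smallest that 3 against 3 arrays allow.

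The arrays of Slc40a1 did not overlap, so leaving out any 1 array could not turn its direction. Its log2 difference was then 0.49 to 0.80. With a sex term, the mean log2 signal of the Y-linked genes Eif2s3y, Kdm5d and Uty, it turned to -0.27 (SE 0.50, limma adjusted p = 0.915). That term ran from 7.10 to 7.36 on wild-type and from 5.31 to 6.19 on Dap12-deficient arrays, so it separated the groups itself. Dap12-deficient array 1 was highest for Slc40a1 and, at 2571, for Xist, and lowest for Eif2s3y, at 64.5. Slc40a1 is also made by other macrophages and by glia. Of 7 tested markers of border and other tissue macrophages 3 were higher and 4 lower, and the summed signal of all 8 was 5822 to 6456 in wild-type cultures and 5213 to 6183 in Dap12-deficient ones. Cd163, a marker of such macrophages that takes up hemoglobin, was at 0.18 to 8.14 on all 6 arrays, below the filter. Other markers of the list were bright, such as Pf4, at 2746 to 2972 in wild-type and 1885 to 2793 in Dap12-deficient cultures. Mrc1 (1422 to 1631 and 1743 to 2034) and the dim Cbr2 (10.5 to 12.2 and 18.5 to 35.2) were higher on every Dap12-deficient array. Folr2 (165 to 185 and 76.0 to 119) was lower on every one. The part of such macrophages in the result was not tested. Summed signals of 10 astrocyte markers were 570.5 to 993 and 531 to 1477. Of the 9 tested ones 8 were higher and 1 lower, with a median log2 difference of 0.32. On Dap12-deficient arrays 1 to 3 the sum was 973, 531 and 1477, where Slc40a1 read 2599, 2205 and 1699. Summed signals of 11 oligodendrocyte lineage markers were 7622 to 11096 and 3768 to 8868, with 2 higher, 9 lower and a median of -1.25. Of these astrocyte and oligodendrocyte markers 0 passed. With an oligodendrocyte term in the model (Ugt8a, Mag, Mog, Mobp and Mbp, averaged as log2 signals) the log2 difference of Slc40a1 was 0.97 (SE 0.22, limma adjusted p = 0.191). That term ran from 7.98 to 9.21 on wild-type and from 5.80 to 8.52 on Dap12-deficient arrays, so it partly followed the groups. Of the listed markers outside it, Olig1 (1247 to 1532 and 1320 to 1505), Olig2 (151 to 226 and 172 to 210) and Pdgfra (523 to 687 and 533 to 613) overlapped. Cspg4 (162 to 174 and 43.3 to 55.4) did not. The part of astrocytes in the result was not tested.

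At their brightest probe sets the arrays of the other transport genes of the set overlapped between the groups. Slc11a1, the phagosomal metal pump once called Nramp1, read 1205, 1844 and 1214 in wild-type cultures and 1195, 1656 and 1392 in Dap12-deficient ones. The arrays overlapped throughout, and array 2 of each group was the high one. The log2 difference was 0.01 with a 95% interval of -0.48 to 0.50, and a difference within that interval could not be told from 0. Tfrc read 733, 686 and 751 in wild-type cultures and 1076, 718 and 727 in Dap12-deficient ones at its brightest probe set. Dap12-deficient array 1 stood above the other 5 arrays, which lay at 686 to 751. Its log2 difference was 0.19 (SE 0.21, 95% interval -0.27 to 0.64), and without that array it was -0.00051. With the oligodendrocyte term it was 0.53 (SE 0.23, limma adjusted p = 0.340). A second tested Tfrc probe set was dim at 3.71 to 17.4, and a further one below the filter lay at 0.29 to 8.59. The array maker's control probe set for the 3' end of Tfrc, left out of the fit with the other controls, was dim too, at 7.64, 10.4 and 10.3 in wild-type cultures and 13.4, 12.04 and 15.5 in Dap12-deficient ones. These arrays did not overlap, with 0.09 log2 units between the closest of the 2 groups and an exact two-sided permutation p of 0.1. The control probe sets for the middle and 5' end read 0.57 to 2.99 and 0.73 to 5.28 over the 6 arrays, with overlap.

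Among the oxidase genes, Ncf1, which encodes the organizer subunit that carries the cytosolic complex to the membrane, had the largest difference. It read 1594, 1563 and 1878 in wild-type cultures and 892, 1573 and 712 in Dap12-deficient ones at its brightest probe set. Dap12-deficient arrays 1 and 3 lay below all wild-type arrays, while array 2 fell within the wild-type range, just above wild-type array 2. Means were 1678 ± 174 (SD, n = 3) and 1059 ± 454 (SD, n = 3), 1.58-fold higher in wild-type. The log2 difference was -0.73 (SE 0.27, 95% interval -1.33 to -0.14, limma adjusted p = 0.387). Without Dap12-deficient replicate 2, the array within the wild-type range, it was -1.05 (SE 0.22, limma adjusted p = 0.0657). In that setting the probe sets called over the whole table rose from 2 to 172. Without Dap12-deficient replicate 3 the Ncf1 difference was -0.49 (SE 0.25, limma adjusted p = 0.572). Over all settings tried it stayed between -1.05 and -0.46, with limma adjusted p from 0.0657 to 0.790. The 2 dimmer probe sets, which share a source sequence, read 91.2 to 231 and 50.2 to 103 over the 6 arrays, with log2 differences of -0.43 (SE 0.28) and -0.22 (SE 0.24). At both, Dap12-deficient array 3 was the lowest array and Dap12-deficient array 2 again lay within the wild-type range.

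Cybb, the X-linked gene of the catalytic subunit, varied most among the 9 genes at the brightest probe set, over 2.03 log2 units. That probe set read 942, 2734 and 1850 in wild-type cultures and 3886, 2058 and 2311 in Dap12-deficient ones. Dap12-deficient array 1 was the highest and wild-type array 1 the lowest of the 6, and the others overlapped. Its log2 difference was 0.65 (SE 0.36, 95% interval -0.15 to 1.45, limma adjusted p = 0.557). Leaving out wild-type replicate 1 took it to 0.23, leaving out Dap12-deficient replicate 1 to 0.37 and leaving out wild-type replicate 2 to 0.99. A second probe set read 149, 265 and 153 in wild-type cultures and 496, 265 and 178 in Dap12-deficient ones, a difference of 0.61 log2 units (SE 0.34). Here too Dap12-deficient array 1 stood highest. The third probe set, annotated with the same source sequence as the brightest, lay on the other side, at 81.1, 138 and 93.9 against 77.3, 105 and 56.0, a log2 difference of -0.34 (SE 0.25). On Dap12-deficient array 1 this probe set was therefore next to lowest, where the other 2 were highest, and which of them follows the transcript was not tested. With the sex term the log2 difference of the brightest probe set was 0.13 (SE 1.06).

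Cyba, whose product forms the membrane core with that of Cybb, read 2464, 3701 and 2339 in wild-type cultures and 1516, 3190 and 2177 in Dap12-deficient ones. Dap12-deficient arrays 1 and 3 lay below all wild-type arrays and array 2 within their range, as for Ncf1. The log2 difference was -0.34 (SE 0.28, 95% interval -0.95 to 0.28, limma adjusted p = 0.686). Leaving out wild-type replicate 2 moved it to -0.13, Dap12-deficient replicate 1 to -0.07 and Dap12-deficient replicate 2 to -0.61. With the oligodendrocyte term it was -0.86 (SE 0.31, limma adjusted p = 0.278). Ncf4, the cytosolic subunit that binds a phosphoinositide of phagosome membranes, read 501, 535 and 418 in wild-type cultures and 319, 540 and 417 in Dap12-deficient ones. Dap12-deficient array 1 was the lowest of the 6, Dap12-deficient array 2 the highest, and Dap12-deficient array 3 lay beside wild-type array 3. The log2 difference was -0.21 (SE 0.23, 95% interval -0.70 to 0.29, limma adjusted p = 0.772), which became -0.39 without Dap12-deficient replicate 2 and -0.02 without Dap12-deficient replicate 1. The oligodendrocyte term took it to -0.52 (SE 0.27). The lower values of Ncf1, Cyba and Ncf4 stood beside the 10 of 11 microglial markers that were lower, whose part in them was not tested. On Dap12-deficient array 1 the lowest Cyba and Ncf4 signals of the 6 arrays thus stood beside the highest of the brightest Cybb probe set. Granulocytes carry the same oxidase, and 6 of their markers, among them S100a9, Mpo and Elane, summed to 25.1 to 56.1 in wild-type cultures and 33.0 to 51.6 in Dap12-deficient ones.

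The 2 antioxidant genes differed in how well they could be measured. Hmox1, the enzyme that breaks heme into iron, biliverdin and carbon monoxide, read 3624, 1668 and 2616 in wild-type cultures and 3369, 2162 and 2217 in Dap12-deficient ones. Array 1 was high in each group, and the wild-type arrays alone spanned the whole range. Between the groups the log2 difference was 0.01 with a 95% interval of -0.62 to 0.64 (limma adjusted p = 0.994), and with the oligodendrocyte term it was 0.57 (SE 0.31, limma adjusted p = 0.439). Nqo1 read only 9.34, 14.3 and 8.83 in wild-type cultures and 13.7, 12.2 and 11.5 in Dap12-deficient ones, close to the filter at a signal of 8.51. Its log2 difference of 0.09 (SE 0.18) is on a scale that adds 16 to each signal and so understates changes of dim genes, and the dim signal limits what it can show.

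**Figure D2:**
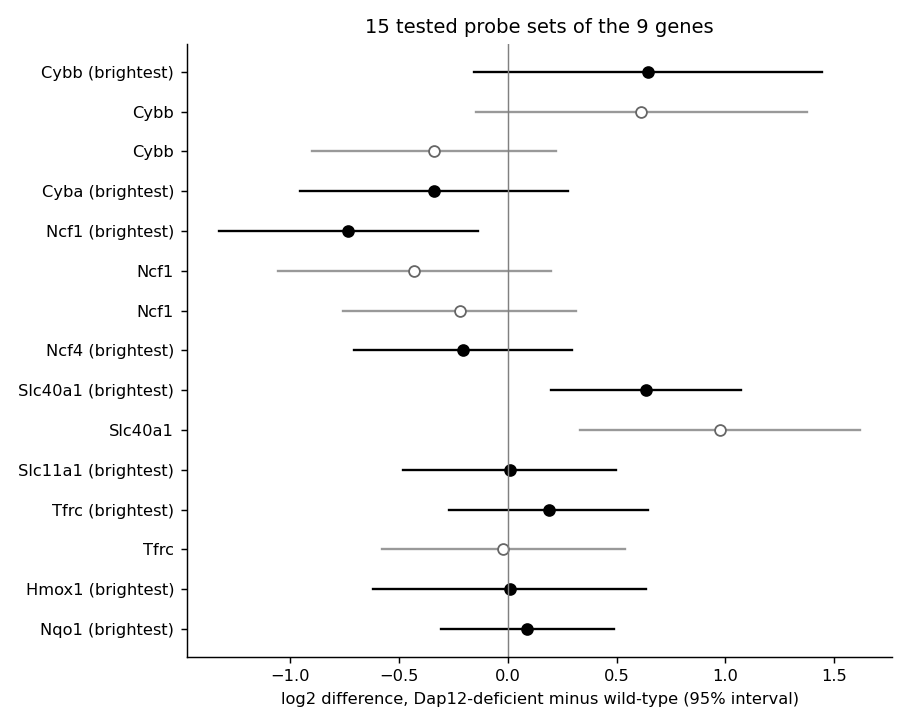
Log2 difference between Dap12-deficient and wild-type cultures with its 95% interval for the 15 tested probe sets. Black marks the brightest probe set of each gene, grey the others. The intervals of both Slc40a1 probe sets and of the brightest Ncf1 probe set leave out 0 before adjustment, and the Cybb probe sets lie on both sides of it.

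Other processing settings and smaller sets of arrays were tried for each of the 9 genes. In limma 0 of the 187 values under 21 such settings passed the threshold. Slc40a1 was higher under 20 of the 21, Ncf1 lower and Cybb higher under all 21, and Hmox1 and Slc11a1 turned their sign under 5 each. Settings that changed only the filter, the eBayes step or the other probe sets tested left the log2 difference of a gene unchanged. These could not turn a sign, nor could leaving out 1 array for Slc40a1. With the sex term the values of Cyba and Ncf4 turned to 0.74 (SE 0.74) and 0.41 (SE 0.63), and those of Hmox1 and Tfrc to -1.40 (SE 0.70) and -0.72 (SE 0.53).

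**Figure D3:**
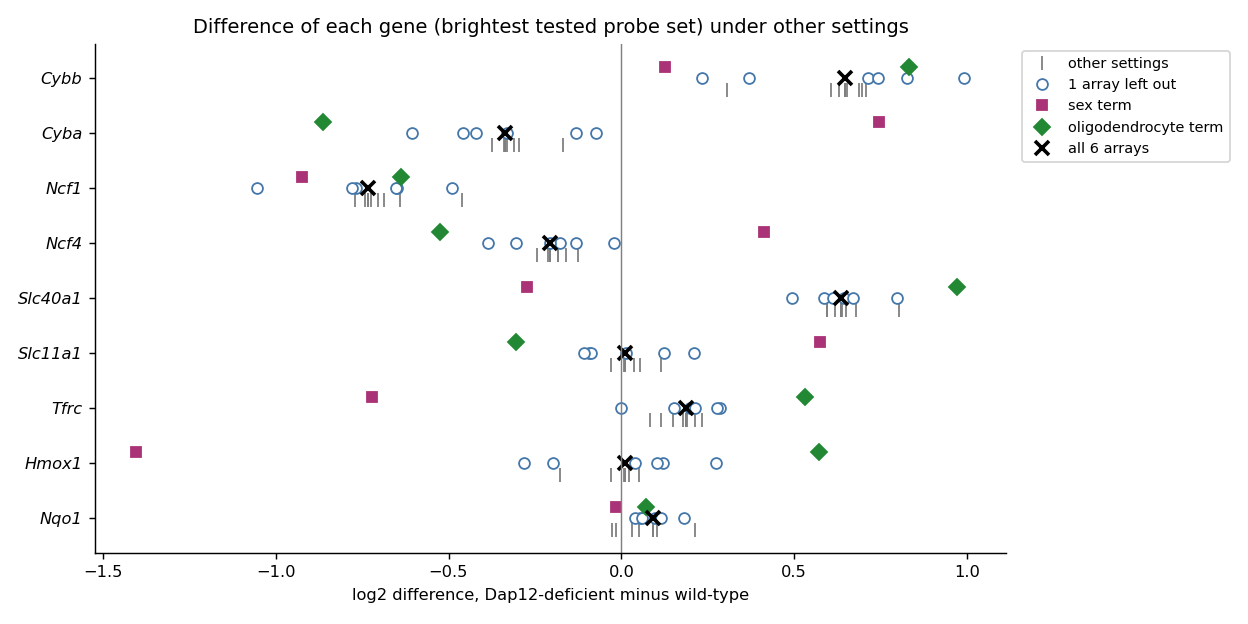
Log2 difference of each of the 9 genes with all 6 arrays (crosses), with 1 array left out (circles), with a sex term (squares), with an oligodendrocyte term (diamonds) and under the remaining settings (bars). Ncf1 stays below 0 and Cybb above 0 throughout, while Slc40a1 lies above 0 except with the sex term.

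The genes whose centred log2 signals ran closest to a member over the 6 arrays were sought among 12866 others for the 5 genes ranging over more than 1 log2 unit. The measure was the root mean square of the differences, so it is a description of these 6 arrays. Closest to Slc40a1 was Mcoln2, an endolysosomal cation channel, at 0.06 log2 units, with signals of 93.4, 76.3 and 91.6 in wild-type cultures and 174, 158 and 121 in Dap12-deficient ones. The transcription cofactor gene Eya1 followed at 0.09. For Cyba these were the hexose transporter gene Slc2a6 at 0.07 and Tmem106a at 0.08, and for Ncf1 Nacc2 and the interferon-inducible Nmi, both at 0.12. Cybb had the splicing factor gene Srsf9 at 0.17 and the mitochondrial exchanger gene Slc8b1 at 0.19. For Hmox1, Ppp1r36 and Prkaa2, a catalytic subunit of AMP-activated kinase, both at 0.12, were dim, with signals of 0.39 to 16.7 and 10.1 to 28.5.

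Other genes of the oxidase and its activation were read from a list of 22, of which 13 had a tested probe set. None passed (0 higher, 0 lower). Of the 13, 6 were higher and 7 lower, against 45.2% higher over all genes. The median log2 difference was -0.13 and 0 had an unadjusted p under 0.05, against 9.63% of all genes. Rac2, the GTPase of the oxidase in phagocytes, read 479, 556 and 427 in wild-type cultures and 171, 561 and 403 in Dap12-deficient ones (log2 difference -0.49, SE 0.35). As with Cyba, Dap12-deficient array 1 was low and array 2 was not. Without Dap12-deficient replicate 1 the Rac2 difference was -0.03, without Dap12-deficient replicate 2 it was -0.84, and with the oligodendrocyte term -1.28 (SE 0.34). The ubiquitous Rac1 had -0.34 (SE 0.21) and the proton channel Hvcn1, which balances the charge that the oxidase moves, -0.39 (SE 0.21). Without Dap12-deficient replicate 3 these became -0.18 and -0.26, and the oligodendrocyte term took Rac1 to -0.08. Duox1, a homologue of the catalytic subunit found in epithelia, was dim at 0.61 to 14.8 and had 0.43 (SE 0.21). Adding 1 or 64 in place of 16 to the signals gave 1.44 and 0.14 for Duox1, leaving out wild-type replicate 1 gave 0.26 and quantile normalization 0.34. Limma adjusted p of these 4 lay between 0.508 and 0.640.

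Antioxidant genes and Nrf2 targets were represented by 28 tested genes of 32. Again 0 passed in either direction, with 13 higher and 15 lower, against 45.2% higher over all genes, and a median of -0.04. An unadjusted p under 0.05 was found for 4 of the 28, against 9.63% of all genes. Arrays did not overlap for 2 genes on the higher side and 5 on the lower, against 7.54% and 8.85% of all genes. Mafk, a small partner protein of Nrf2 and Bach1, read 304, 253 and 316 in wild-type cultures and 362, 440.1 and 572 in Dap12-deficient ones (log2 difference 0.61, SE 0.22, and 0.38 with the oligodendrocyte term). Sqstm1, an autophagy receptor, had 0.47 (SE 0.20) and its arrays did not overlap, but without wild-type replicate 3 it had 0.27. Osgin1, an oxidant-induced growth inhibitor, had 0.66 (SE 0.30), with 278 on Dap12-deficient array 1 below all wild-type arrays and 638 and 643 on the others above them. Without Dap12-deficient replicate 1 the Osgin1 difference was 1.04, and with the oligodendrocyte term 0.02 (SE 0.29). Gpx4, which detoxifies lipid peroxides, read 2071, 2897 and 2102 in wild-type cultures and 902, 1916 and 1893 in Dap12-deficient ones (log2 difference -0.64, SE 0.29). Its arrays did not overlap, and its second probe set gave -0.73 (SE 0.27). At the brightest one the difference was -0.29 without Dap12-deficient replicate 1 and -1.36 (SE 0.24) with the oligodendrocyte term. Adjusted p of these 4 genes in limma ranged from 0.373 to 0.468. Bach1, named after its values were seen, had 0.36 (SE 0.19) at its brightest probe set and 2.11 (SE 0.47, limma adjusted p = 0.293) at a dimmer one, which read 3.27 to 33.9 in wild-type cultures and 53.4 to 245 in Dap12-deficient ones.

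Iron and heme genes beside the set numbered 24 tested of 32, with 0 passing in either direction. Of the 24, 8 were higher and 16 lower, against 45.2% higher over all genes, with a median of -0.06. An unadjusted p under 0.05 was found for 3 of the 24, against 9.63% of all genes. Lrp1, the receptor that clears heme bound to hemopexin among many ligands, read 230.3, 321 and 236 in wild-type cultures and 99.1, 243 and 161 in Dap12-deficient ones (log2 difference -0.66, SE 0.29). It was -0.36 without Dap12-deficient replicate 1 and -1.19 with the oligodendrocyte term. Its dimmer probe set gave -0.95 (SE 0.20), with no overlap between 61.5 to 87.3 and 25.7 to 33.9. Blvra, the biliverdin reductase downstream of heme oxygenase, read 1188, 1489 and 1556 against 994, 1136 and 872 (log2 difference -0.49, SE 0.19), again without overlap. Steap3, an endosomal ferric reductase, was dim, at 1.51 to 8.56 and 14.3 to 15.0 (0.56, SE 0.19), and so was the second transferrin receptor gene Tfr2, at 11.4 to 20.2 and 16.9 to 30.0 (0.37, SE 0.21). Such values move with the pseudocount and the normalization. Adding 1 or 64 in place of 16 gave 1.57 and 0.19 for Steap3 and 0.66 and 0.15 for Tfr2. Quantile normalization gave 0.47 for Steap3 and 0.26 for Tfr2. With the oligodendrocyte term Tfr2 had 0.15. Limma adjusted p of the 4 brightest probe sets lay between 0.365 and 0.561.

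**Figure D4:**
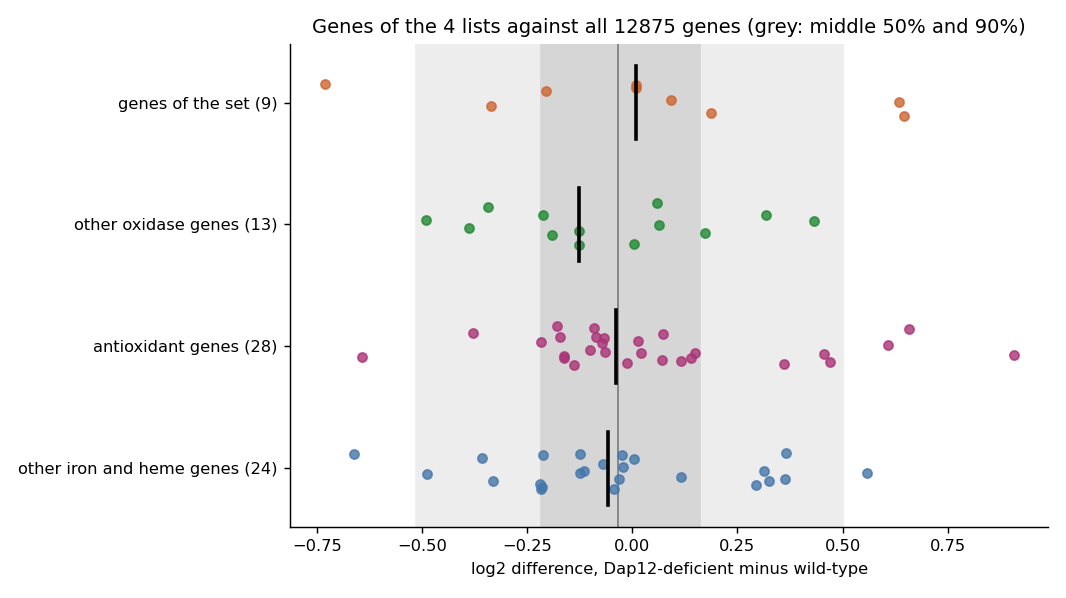
Log2 differences of single genes (points, brightest tested probe set) in 4 lists, with the median of each list as a black bar. The grey bands hold the middle 50% (-0.22 to 0.16) and 90% (-0.52 to 0.50) of all 12875 genes. The list medians of -0.13 to 0.01 lie inside the inner band.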

How the data were processed

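The deposited table holds, for 6 arrays, 1 linear signal intensity per probe set, made with GCOS per the submitters' processing notes, which give no version or settings. RNA extraction used Trizol and RNeasy, and biotin labelling a kit of 2 cycles, per the labels' protocols. Such amplification shortens transcripts, so probe sets of a gene far from the 3' end can read low. The mean signal without the lowest and highest 2% was 100.0 on each array, so each had been scaled to 1 target, and the values were used as deposited. Groups came from the labels' descriptions, and replicate numbers follow deposit order.

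Differences were fitted in limma 3.58.1 (R 4.3.3; lmFit, eBayes with intensity trend, two-sided, no covariate) on log2(signal + 16), over the 27022 non-control probe sets whose mean signal reached the 40th percentile (8.51), and adjusted over that table by Benjamini-Hochberg. No detection calls were used, and precision is limited by the number of arrays. Each gene was read from its brightest tested probe set. Of each pathway list the 4 genes with the smallest p were named, and the genes and lists were chosen with earlier results of these data known. Older symbols were updated through gene identifiers. Several listed genes were not analysed here. The steps were tested on simulated data. Alternatives were other pseudocounts, normalizations, filters, eBayes settings, array weights, probe set choices, a sex and an oligodendrocyte term, and leaving out each array. Promoter sequences are from RefSeq. Plots used matplotlib 3.10.9 in Python 3.11.15.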

Additional observations from a re-analysis of the deposited data

How the results depend on the processing

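In limma none of the 9 genes (0) passed in any of the 20 settings that refit the table and tested it. Cyba was not tested in the one without probe sets named _a_at, _s_at or _x_at, nor Nqo1 with the filter at the 60th percentile. The number of probe sets called over the whole table, 2 with all arrays, was 4 with array weights, 4 with the brightest probe set per gene, 1 without probe sets that can bind several transcripts, 11 with the sex term, 5 with the oligodendrocyte term, and 2 to 172 with 1 array left out, the highest without Dap12-deficient replicate 2 (15 without Dap12-deficient replicate 1). Genes of the set whose arrays did not overlap numbered 2 with a common median (Slc40a1 and Ncf1, against 17.3% of all genes), and 1 to 4 with 1 array left out.

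Of the 9 genes, Ncf1 and Cybb kept their direction under every setting run, some of which could not turn it. Their values with the sex term were -0.93 (SE 0.79) and 0.13 (SE 1.06), so the direction is not settled there. A dimmer Cybb probe set lay on the other side, at -0.34, and the mean of all Cybb probe sets gave 0.31. With the sex term the log2 difference turned to 0.41 for Ncf4, 0.74 for Cyba, -1.40 for Hmox1, -0.016 for Nqo1, -0.27 for Slc40a1, -0.72 for Tfrc, 1.47 for Rac2, 1.19 for Gpx4 and 0.59 for Lrp1. Values near 0 turned elsewhere: Hmox1 to -0.028 with a common median, to -0.18 with array weights and to between -0.28 and 0.27 with 1 array left out, Nqo1 to -0.027 after quantile normalization and -0.015 after cyclic loess, Slc11a1 to -0.029 with a common median, -0.31 with the oligodendrocyte term and between -0.11 and 0.21 with 1 array left out, and Tfrc to between -0.00051 and 0.29. The oligodendrocyte term took Hmox1 to 0.57, Cyba to -0.86, Ncf4 to -0.52 and Tfrc to 0.53. The cause was not tested. The sex term separated the groups itself and widened the SE of Slc40a1 from 0.20 to 0.50. The oligodendrocyte term was lower on Dap12-deficient arrays 2 and 3 than on every wild-type array. No paired analysis was possible because replicate numbers follow deposit order and pair no cultures. Signals of Nqo1, Steap3 and Duox1 were dim, which limits what their differences can show.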
